A study of Homo sapiens with 36 samples.

Results

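ATF3, ATF2, JDP2, BATF, BATF2, BATF3, MAFF, MAFG and MAFK were examined as the ATF, BATF and small Maf genes of the basic leucine zipper (bZIP) class that lie outside the Jun and Fos families. They are 9 of the 20033 protein-coding genes of the GENCODE annotation on chromosomes 1 to 22, X and Y of hg38, and were chosen by name. For each gene, every peak that overlapped a window of 3 kb on either side of any of its annotated start sites was collected, and every peak of JunB, Jun or JunD within 100 kb of a start site.

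The bZIP factors bind DNA only as dimers, and the partner decides which sequence is read. Jun proteins pair with Fos proteins to form AP-1, which reads TGACTCA, and pair with ATF proteins to read the cyclic AMP response element (CRE), TGACGTCA. ATF3 is an early stress-response factor, ATF2 is a Jun partner that stress kinases activate, and JDP2 (Jun dimerization protein) is an inhibitor of AP-1. BATF, BATF2 and BATF3 also pair with Jun proteins and are best known from lymphoid, interferon-treated and dendritic cells. MAFF, MAFG and MAFK lack an activation domain of their own and act as the DNA-binding partners of the NRF2 and BACH factors, at an AP-1-like core followed by GC, written here as TGANTCAGC.

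Chromatin immunoprecipitation with sequencing (ChIP-seq) was carried out in untreated A549 cells, a human lung adenocarcinoma line, and in B2B (BEAS-2B) cells, an immortalised human bronchial epithelial line that serves as the non-cancerous comparison. RNA polymerase II (pol II), H3K4me3 (a mark of active promoters), H3K27ac (a mark of active promoters and enhancers), Med1 (a Mediator subunit), JunB, Jun and JunD were profiled in both lines, and CTCF and Rad21 (an insulator protein and a cohesin subunit) were taken from B2B. Each of the 16 peak lists pools 2 replicates, so no value below has a replicate error and no difference was tested. The 36 samples include 4 input samples, which were not analysed here.

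The lists held between 8563 peaks (JunB in B2B) and 61225 peaks (CTCF in B2B), and read depth per library is not given in them. Several lists end early. The last peak of the A549 H3K27ac list was on chromosome 13, that of both Med1 lists on chromosome 15 and that of the A549 pol II list on chromosome 20. On chromosome 17 the A549 pol II, H3K4me3 and JunB lists also held no peak past positions 81166279, 81166807 and 81119985, where 61, 61 and 63 protein-coding genes remain and where the A549 Jun and JunD lists went on. MAFG lies 804 kb past the last JunB peak there, so its JunB, pol II and H3K4me3 state in A549 is not known, and a gene past the end of a list was left out of that list's counts. As a check of the cell types, H3K4me3 peaks were found in both lines at the epithelial genes CDH1, EPCAM, KRT8 and KRT18, at the mesenchymal genes VIM, CDH2 and ZEB1 and at the lung genes NKX2-1 and SFTPC. KRT19, the basal keratins KRT5 and KRT14, SFTPB, SCGB1A1 and the endothelial gene PECAM1 had none in either line, and TP63 and the leukocyte gene PTPRC had one in A549 alone.

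The sequences below carry the sites that recur in the results: the hg38 plus strand 50 bp to either side of the strongest Jun-family summit of a region, in lower case, with matches to the AP-1, CRE or extended Maf motif on either strand in capitals. They are the strongest region near ATF3, a region bound by all 3 Jun-family proteins in both lines further upstream of it, the intronic regions of MAFK and MAFG close to their start sites, and motif-bearing regions around ATF2, JDP2, BATF3 and MAFF. For the MAFF start site only the 28 bases around the motif are shown.
ATF3 near upstream region (chr1:212558987-212559087): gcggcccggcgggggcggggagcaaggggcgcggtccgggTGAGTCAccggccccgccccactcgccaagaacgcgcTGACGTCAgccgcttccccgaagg
ATF3 far upstream region (chr1:212486068-212486168): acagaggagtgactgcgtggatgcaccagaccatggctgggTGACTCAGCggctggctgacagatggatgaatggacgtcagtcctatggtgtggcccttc
MAFK first intronic region (chr7:1532877-1532977): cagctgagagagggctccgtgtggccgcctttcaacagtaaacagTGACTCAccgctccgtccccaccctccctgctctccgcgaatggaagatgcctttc
MAFK second intronic region (chr7:1537307-1537407): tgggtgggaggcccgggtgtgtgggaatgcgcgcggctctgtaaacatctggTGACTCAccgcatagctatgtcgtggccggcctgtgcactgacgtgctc
MAFG intronic region (chr17:81926926-81927026): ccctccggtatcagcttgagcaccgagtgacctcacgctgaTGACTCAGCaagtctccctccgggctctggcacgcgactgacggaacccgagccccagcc
MAFF start site (chr22:38201930-38201957): gccgggtcggTGACGTCAccgcatgact
MAFF upstream region (chr22:38178161-38178261): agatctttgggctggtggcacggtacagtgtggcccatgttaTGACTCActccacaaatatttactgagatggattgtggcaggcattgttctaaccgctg
ATF2 intronic region (chr2:175154663-175154763): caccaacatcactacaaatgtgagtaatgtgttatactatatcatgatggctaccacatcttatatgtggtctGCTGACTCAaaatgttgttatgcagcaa
ATF2 distal region in CHN1 (chr2:174998579-174998679): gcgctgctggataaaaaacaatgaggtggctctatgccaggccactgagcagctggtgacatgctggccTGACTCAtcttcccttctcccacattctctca
JDP2 intronic region (chr14:75450460-75450560): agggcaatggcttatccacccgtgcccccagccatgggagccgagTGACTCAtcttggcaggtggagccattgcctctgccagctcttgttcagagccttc
BATF3 downstream region (chr1:212667539-212667639): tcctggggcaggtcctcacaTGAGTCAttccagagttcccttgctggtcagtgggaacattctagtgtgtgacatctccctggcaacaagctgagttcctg

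ATF3 and all 3 small Maf genes had a Jun-family peak within 3 kb in both lines, JDP2 had one in A549 alone, and ATF2, BATF, BATF2 and BATF3 had none in either line. At least 1 of the 3 proteins was therefore called at 5 of the 9 genes in A549, where 43.8% of all covered protein-coding genes had such a peak, and at 4 of 9 in B2B, where 25.8% did. These shares are over genes that all 3 lists of the line cover. MAFG is among the 5 in A549 although the A549 JunB list does not reach it. All 3 proteins were called at ATF3, MAFF and MAFK in A549, 3 of 8 covered members against 13.9% of genes, and at none of the 9 in B2B, where the share of genes was 2.68%.

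JunB was called at 4 of 8 covered members in A549 (31.3% of genes) and at 2 of 9 in B2B (5.38% of genes), the latter being ATF3 and MAFK. Jun was called at 5 of 9 members in A549 (38.2% of genes) and at 4 of 9 in B2B (25.4% of genes). JunD was called at 4 of 9 members in A549 (17.9% of genes) and at none in B2B (3.30% of genes). The member counts are small, and they are descriptions beside the share over all genes, not tests.

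The promoter marks were present at most members. Pol II was called at 6 of 7 covered members in A549 (69.9% of genes) and 6 of 9 in B2B (51.0% of genes). H3K4me3 was called at 6 of 8 in A549 (74.2% of genes) and 7 of 9 in B2B (62.8% of genes), and H3K27ac at 5 of 5 in A549 (73.6% of genes) and 7 of 9 in B2B (65.0% of genes). Med1 was called at 5 of 7 in A549 (54.8% of genes) and 6 of 7 in B2B (61.2% of genes). In B2B, CTCF was called at 5 of 9 members (50.1% of genes) and Rad21 at 8 of 9 (67.9% of genes). BATF was the member without a peak in any of the lists that cover it.

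**Figure D1:**
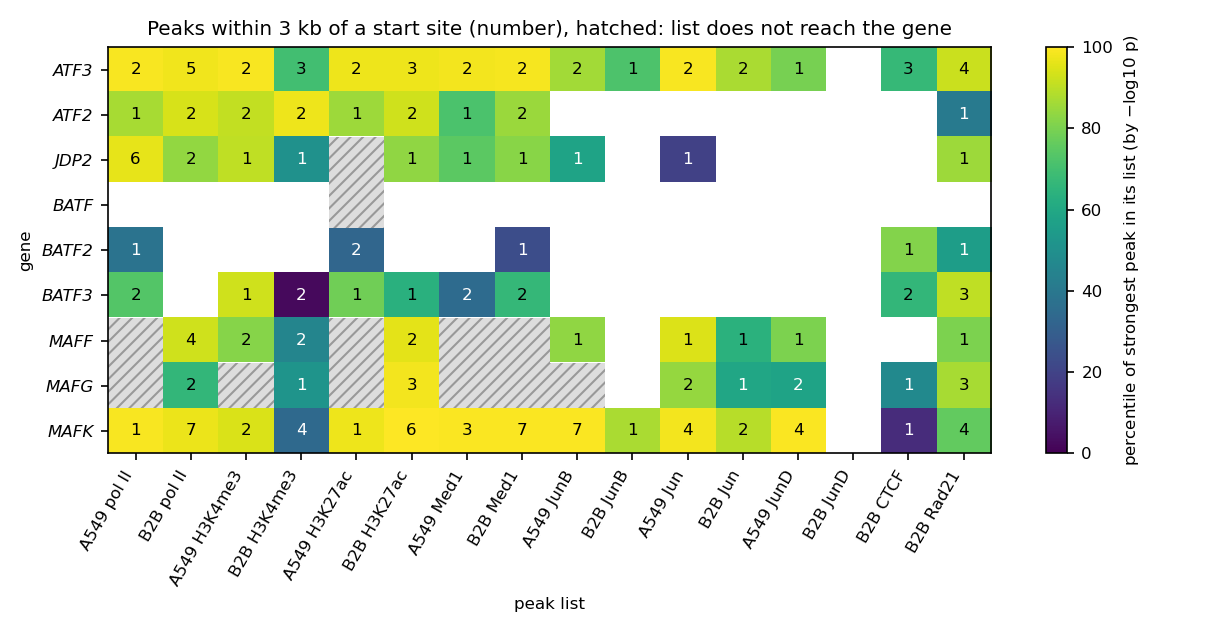
Number of peaks within 3 kb of a start site of each gene (rows) in each of the 16 lists (columns), coloured by the percentile of the strongest peak within its own list by −log10 p. Blank cells have no peak and hatched cells lie past the end of a list. The BATF row is empty where it is covered, and the Jun-family columns are filled mainly for ATF3, MAFF, MAFG and MAFK.

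ATF3 (ENSG00000162772.18, chromosome 1, 212565334 to 212620777, plus strand) has 7 annotated start sites, and its peaks fell into an upstream cluster and a downstream cluster in the gene body. At the downstream cluster Jun was called in both lines. In A549 the Jun peak spanned 212608178 to 212608915, with its summit 9 bp from a start site, a fold enrichment of 55.7 over the local background and a rank in the top 1.09% of its list. In B2B the Jun peak spanned 212608224 to 212608839, with a fold of 6.11 and a rank in the top 12.7%. Fold enrichment is the pileup over the background of its own list, and both terms were recovered from the deposited fold and p-value: the A549 summit held 154 reads over a background of 1.8 reads, and the B2B summit held 157 reads over a background of 25 reads. The stacks of reads were thus alike in height, and the backgrounds were not. JunB (fold 9.85) and JunD (fold 7.16) were called there in A549 and not in B2B.

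The upstream cluster of ATF3, near its first start site, was bound by JunB and Jun in both lines. JunB had a fold of 15.1 in A549 (50 reads over 2.4) and 8.89 in B2B (30 reads over 2.5). Jun had a fold of 22.3 in A549 (66 reads over 2.0) and 17.4 in B2B (55 reads over 2.2). Here the backgrounds were alike, and the JunB pileup and fold were higher in A549. The summits lay between 1950 and 1984 bp downstream of the first start site in an intron, and a CTCF peak of B2B (17 reads over 2.0) had its summit 1972 bp from the same start.

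Pol II and the active marks covered the downstream ATF3 cluster in both lines. The A549 pol II peak was 18.2 kb wide, at 324 reads over 3.3 and in the top 1.12% of its list. The widest of the B2B pol II peaks was 7.70 kb wide, at 310 reads over 43 and in the top 2.04%. H3K27ac reached 341 reads over 3.2 in A549 and 314 reads over 35 in B2B. H3K4me3 ranked lower in B2B, where its strongest ATF3 peak was in the top 30.1% of the list, against the top 0.814% in A549. Med1, whose background was low in both lines, reached 91 reads over 2.9 in A549 and 82 reads over 3.1 in B2B, in the top 1.80% and 1.45% of its lists, with peaks of 1705 bp in A549 and 1897 bp in B2B.

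MAFK (ENSG00000198517.10, chromosome 7, 1530702 to 1543043, plus strand) carried the most Jun-family peaks of the 9 genes. Within 3 kb of its start sites A549 had 7 peaks of JunB, 4 of Jun and 4 of JunD, where B2B had 1 of JunB, 2 of Jun and none of JunD. The leading site was the second intronic region shown above, with its leading summits between -132 and -124 bp from an internal start site, that is, upstream of it. JunB had a fold of 35.7 in A549 (159 reads over 3.5) and 3.24 in B2B (152 reads over 46). Jun had a fold of 48.9 in A549 (145 reads over 2.0) and 6.16 in B2B (175 reads over 28). JunD had a fold of 17.4 in A549 (76 reads over 3.4), in the top 0.643% of its list, and was not called in B2B. The JunB and Jun pileups were of the same order in both lines, as that of Jun was at the downstream ATF3 cluster, and the backgrounds differed.

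The first intronic MAFK region, whose printed sequence also holds TGACTCA, was bound by all 3 proteins in A549 and by Jun in B2B. Jun held 65 reads over 2.0 in A549 and 78 reads over 12 in B2B. The first MAFK start site itself, at 1530435 to 1531510, had all 3 proteins in A549, where JunB held 31 reads over 2.9, Jun 37 reads over 1.5 and JunD 24 reads over 2.6. It had no Jun-family peak in B2B, where the background is not known without a peak. At the second intronic region the B2B background was 28 reads for Jun and 46 reads for JunB, and at the first intronic region 12 reads for Jun. Whether stacks as low as those of A549 would be called over such backgrounds was not tested. Pol II (218 reads over 42), H3K27ac and Med1 (43 reads over 2.4) of B2B were called there. None of the 3 motifs lies within 50 bp of its strongest summit.

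The active marks covered MAFK in A549 with few wide peaks and in B2B with many narrower ones. Pol II was called in A549 as 1 peak of 21.2 kb, H3K27ac as 1 peak of 19.7 kb and Med1 as 3 peaks, the widest of 9.99 kb. In B2B the same marks were called as 7, 6 and 7 peaks that together covered 5320, 8548 and 5365 bp. The B2B background at the strongest peak was 37 reads under pol II, 31 reads under H3K27ac and 3.0 reads under Med1. Whether the background bears on the number of peaks was not tested. By rank MAFK stood near the top of several lists of both lines. The strongest H3K27ac peak was in the top 2.74% of its list in A549 and the top 0.114% in B2B, and the strongest Med1 peak in the top 0.584% and 0.466%. H3K4me3 was the exception, since the highest-ranked of its 4 B2B peaks was in the top 66.0% of the list (160 reads over 83) and its A549 peak in the top 5.46% (195 reads over 3.6).

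**Figure D2:**
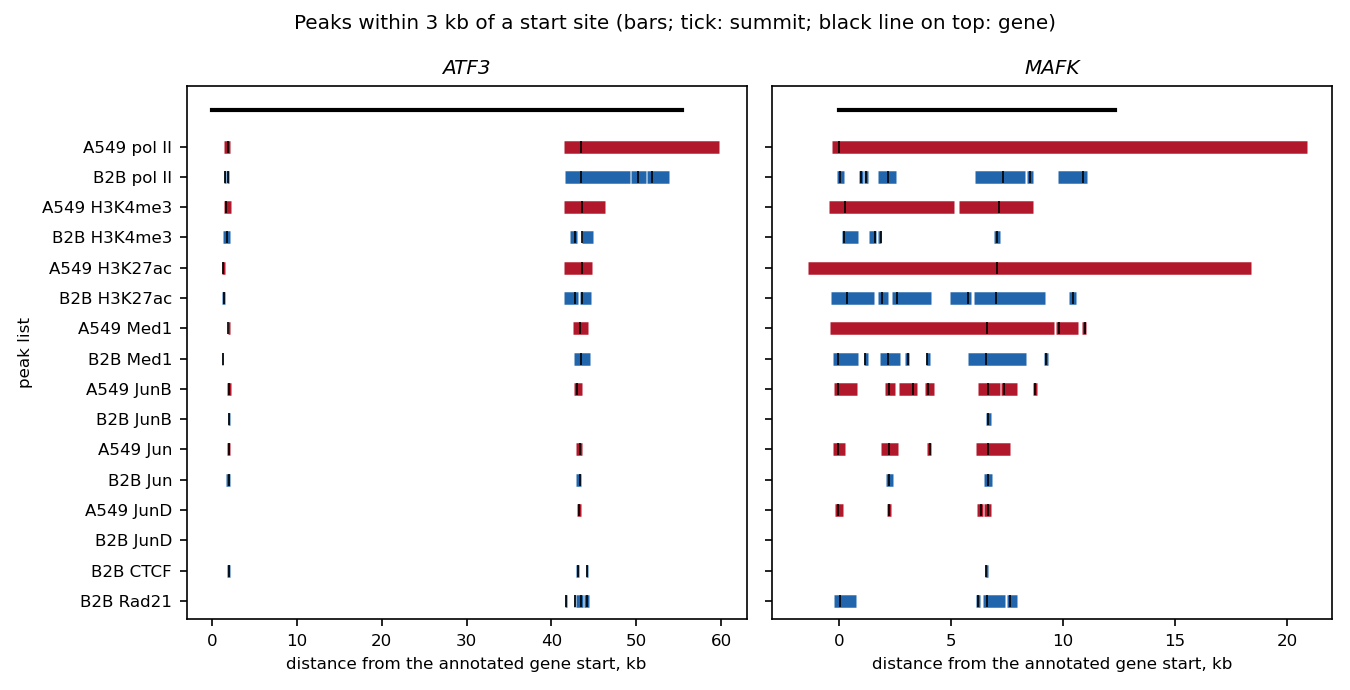
Peaks of each list (rows) along ATF3 and MAFK, as distance in kb from the annotated gene start. Bars are peaks within 3 kb of a start site, ticks are summits, and the black line on top is the gene. The A549 pol II peak of MAFK runs over 21.2 kb, and B2B JunD has no peak in either panel.

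MAFF (ENSG00000185022.12, chromosome 22, 38200767 to 38216507, plus strand) was bound by all 3 proteins in A549 and by Jun in B2B at 1 start site, with every summit 26 to 31 bp downstream of it. JunB had a fold of 9.50 in A549 (61 reads over 5.5). Jun had a fold of 34.2 in A549 over a background of 2.0 reads and a fold of 3.65 in B2B (104 reads over 28), with the A549 pileup 3 reads below that of B2B. JunD had a fold of 7.17 in A549 (31 reads over 3.5). The pattern of like pileups and unlike backgrounds for Jun was that of ATF3 and MAFK. The site holds the CRE TGACGTCA printed above and no TGACTCA. The pol II, H3K27ac and Med1 lists of A549 do not reach chromosome 22. H3K4me3 was called in both lines, at 188 reads over 5.4 in A549 and 171 reads over 82 in B2B.

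MAFG (ENSG00000197063.11, chromosome 17, 81918270 to 81927735, minus strand) was bound by Jun in both lines and by JunD in A549 in an intron, between 732 and 793 bp downstream of a start site. Jun had a fold of 24.6 in A549 (48 reads over 1.00) and 3.33 in B2B (102 reads over 30). JunD had a fold of 6.90 in A549 (18 reads over 1.8). This was the start-site region where the B2B Jun pileup exceeded that of A549 by most. The printed sequence carries TGACTCAGC, the extended motif that small Maf heterodimers read. A549 had a further Jun peak in a coding exon (fold 8.87) and a further JunD peak over an exon of the neighbouring non-coding gene MILIP (fold 4.64). Among the B2B lists that reach the gene, H3K27ac was strongest, at 340 reads over 39 and in the top 1.69% of its list.

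JDP2 (ENSG00000140044.13, chromosome 14, 75427716 to 75474111, plus strand) had a JunB peak (fold 7.33, 28 reads over 3.0) and a Jun peak (fold 6.12, 14 reads over 1.5) at its start site in A549. These were weak within their lists, in the top 41.9% and the top 80.7%. No Jun-family peak was called there in B2B. Pol II at the start site held 269 reads over 2.6 in A549 and 159 reads over 30 in B2B, and H3K4me3 184 reads over 3.6 and 143 reads over 60. Med1 was alike in the lines, with a fold of 9.27 in A549 (30 reads over 2.3) and 9.98 in B2B (34 reads over 2.5).

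ATF2 (ENSG00000115966.18, chromosome 2, 175072250 to 175168382, minus strand) carried the marks of an active promoter in both lines without a Jun-family peak within 3 kb. Pol II was called at fold 43.6 in A549 (175 reads over 3.0) and 6.68 in B2B (212 reads over 31). H3K4me3 was called at 202 reads over 5.0 in A549 and 178 reads over 22 in B2B, in the top 9.15% and 2.67% of the lists. Med1 had a fold of 7.62 in A549 and 10.0 in B2B. The nearest Jun-family regions were both called in B2B alone, in introns, with their near edges 3.48 and 3.57 kb from a start site. The former, printed above, had a Jun fold of 23.6 (50 reads over 1.2) and holds the extended motif on the minus strand. The latter had Jun (fold 10.1) and JunD (fold 4.53). Neither region overlapped a pol II, H3K4me3, H3K27ac or Med1 peak in either line.

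The BATF genes had no Jun-family peak at their start sites, and they differed in their marks. BATF (ENSG00000156127.8, chromosome 14, 75522455 to 75546993, plus strand) had no peak of any kind within 3 kb of its 3 start sites. BATF2 (ENSG00000168062.10, chromosome 11, 64987945 to 64997018, minus strand) had no H3K4me3 peak in either line. It had a CTCF peak in B2B (142 reads over 10, summit 15 bp upstream of a start site) and a Rad21 peak (46 reads over 5.0). Small peaks of pol II (fold 5.43) and H3K27ac (folds of 6.81 and 5.97) were called there in A549 and a small Med1 peak (fold 4.81) in B2B.

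BATF3 (ENSG00000123685.9, chromosome 1, 212686417 to 212699840, minus strand) carried H3K4me3 and pol II of a higher rank in A549, and Med1 of a higher rank in B2B. H3K4me3 held 182 reads over 3.0 in A549, in the top 7.20% of its list. In B2B the stronger of the 2 H3K4me3 peaks held 39 reads over 17 and ranked in the top 97.5%, among the weakest of its list. Pol II was called in A549 at fold 13.6 and 15.0 and was not called in B2B. H3K27ac was called in both lines, at 199 reads over 4.3 in A549 and 161 reads over 42 in B2B, and Med1 was called in both, in the top 65.1% of its list in A549 (fold 5.61) and the top 33.3% in B2B (fold 7.03). With −log10 q of at least 5, BATF3 had no H3K4me3 peak left in B2B.

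The relation between pileup and background was examined over all regions near the members with a Jun peak in both lines. Of 39 such regions, 6 overlapped a window of 3 kb around a member's start site and 33 did not. In the 6 start-site regions the A549 fold was higher in 6 of 6, with a median of 29.4 against 6.02, and the A549 peak ranked higher in its list in 6 of 6. The median pileup was 83.5 reads in A549 and 103 reads in B2B, and the A549 pileup was the higher in 1 of 6. The median background was 2.0 reads in A549 and 26.5 reads in B2B. Per the methods of the study the merged reads were scaled across the cell lines before peak calling, but the depth of each library and the control given to the peak caller are not known here. A fold difference between lines at these start sites and the background difference cannot be told apart from the lists. Whether calls made in A549 alone at start sites depend on the B2B background was not tested.

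Farther than 3 kb from the members' start sites the backgrounds were closer, though this set also holds regions at start sites of neighbouring genes. The region 0.235 kb from a start site of P4HB had the highest B2B background of the set, 42 reads against 1.3 in A549. Over the 33 farther regions the median background was 1.5 reads in A549 and 3.5 reads in B2B, the median pileup was 65.0 and 62.0 reads, and the median fold 21.8 and 9.54. The A549 fold was higher in 27 of 33, the A549 pileup in 12 of 33, and the A549 rank in its list in 20 of 33. Over 400 peaks drawn from each list the median Jun background was 1.34 reads in A549 and 1.31 in B2B. The same medians did differ between the lines for pol II (2.34 and 13.2 reads), H3K4me3 (3.31 and 26.2) and H3K27ac (2.26 and 13.1), and not by much for Med1 (1.92 and 1.99). At the members' own B2B peaks the median background was 26.0 reads for pol II, 40.0 for H3K4me3, 31.0 for CTCF and 2.80 for Med1.

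**Figure D3:**
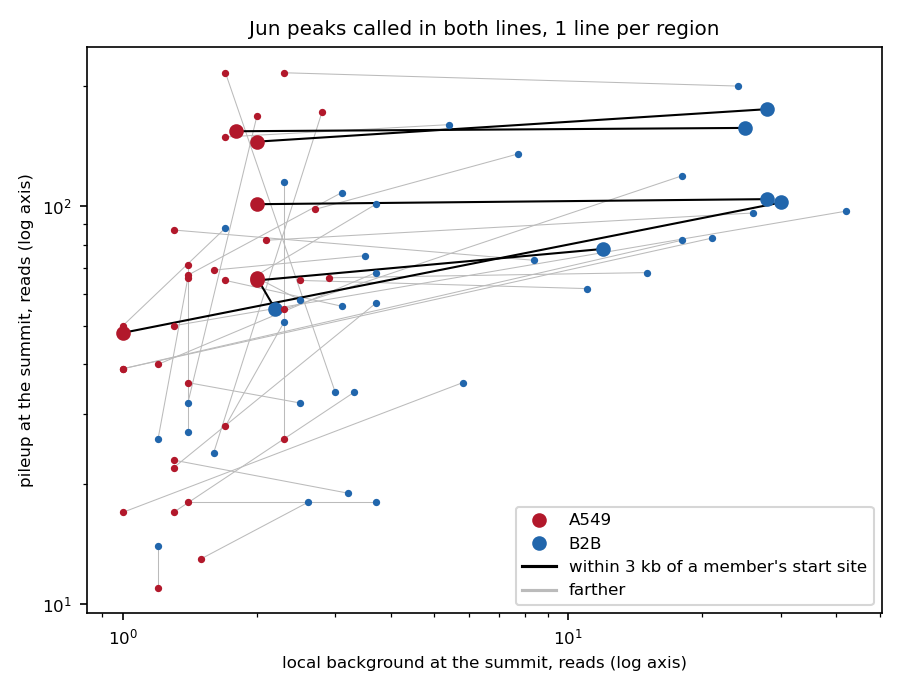
Pileup (vertical, reads, log axis) against local background (horizontal, reads, log axis) at the summits of Jun peaks, with A549 in red and B2B in blue and a line joining the same region in both lines. The 6 regions within 3 kb of a member's start site, joined by black lines, have backgrounds of 1.0 to 2.0 reads in A549 and of 2.2 to 30 reads in B2B, and the A549 pileup is the higher in 1 of them.

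Within 100 kb of the start sites there were 104 Jun-family regions, made by joining peaks of JunB, Jun and JunD of both lines that share at least 1 bp. Of these, 42 were called in both lines, 39 in A549 alone and 23 in B2B alone, that is 40.4%, 37.5% and 22.1%. Over the genome 72011 regions divided into 26.5%, 34.1% and 39.4%. All 13 regions within 3 kb of a member's start site were called in A549, 6 of them in both lines and 7 in A549 alone. The same count was not made over the genome. Of all regions with their strongest summit within 1 kb of a protein-coding start site, 6880 were called in A549 alone. A further 2164 were called in both lines and 1548 in B2B alone, so most start-site regions of any gene were called in A549. Of the 23 regions called in B2B alone, 19 had Jun as the single protein. Over all 47486 B2B regions of the genome, including those shared with A549, 80.4% had 1 protein and 94.1% had Jun.

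The number of regions varied from 7 to 20 a gene, where the median over all protein-coding genes was 7 (quartiles 4 and 11). ATF3 had 20 regions (12 in both lines, 1 in A549 alone, 7 in B2B alone), more than 95.6% of genes. MAFG also had 20 (6, 13 and 1), although the A549 JunB list does not reach it. MAFF had 18 (6, 5 and 7) and MAFK 14 (6, 7 and 1). BATF and BATF3 had 11 each, with 5, 4 and 2 at BATF and 4, 0 and 7 at BATF3. BATF2 had 10 (3, 7 and 0), and ATF2 (2, 2 and 3) and JDP2 (2, 3 and 2) had 7 each, close to the median gene. The windows of ATF3 and BATF3 share regions, as do those of JDP2 and BATF, so the counts do not add up to 104. Around BATF3 no region was called in A549 alone, as around 15.3% of all protein-coding genes. Around BATF2 none was called in B2B alone, as around 25.6% of genes. MAFK and MAFG each had a single region called in B2B alone, where the median gene had 2.

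**Figure D4:**
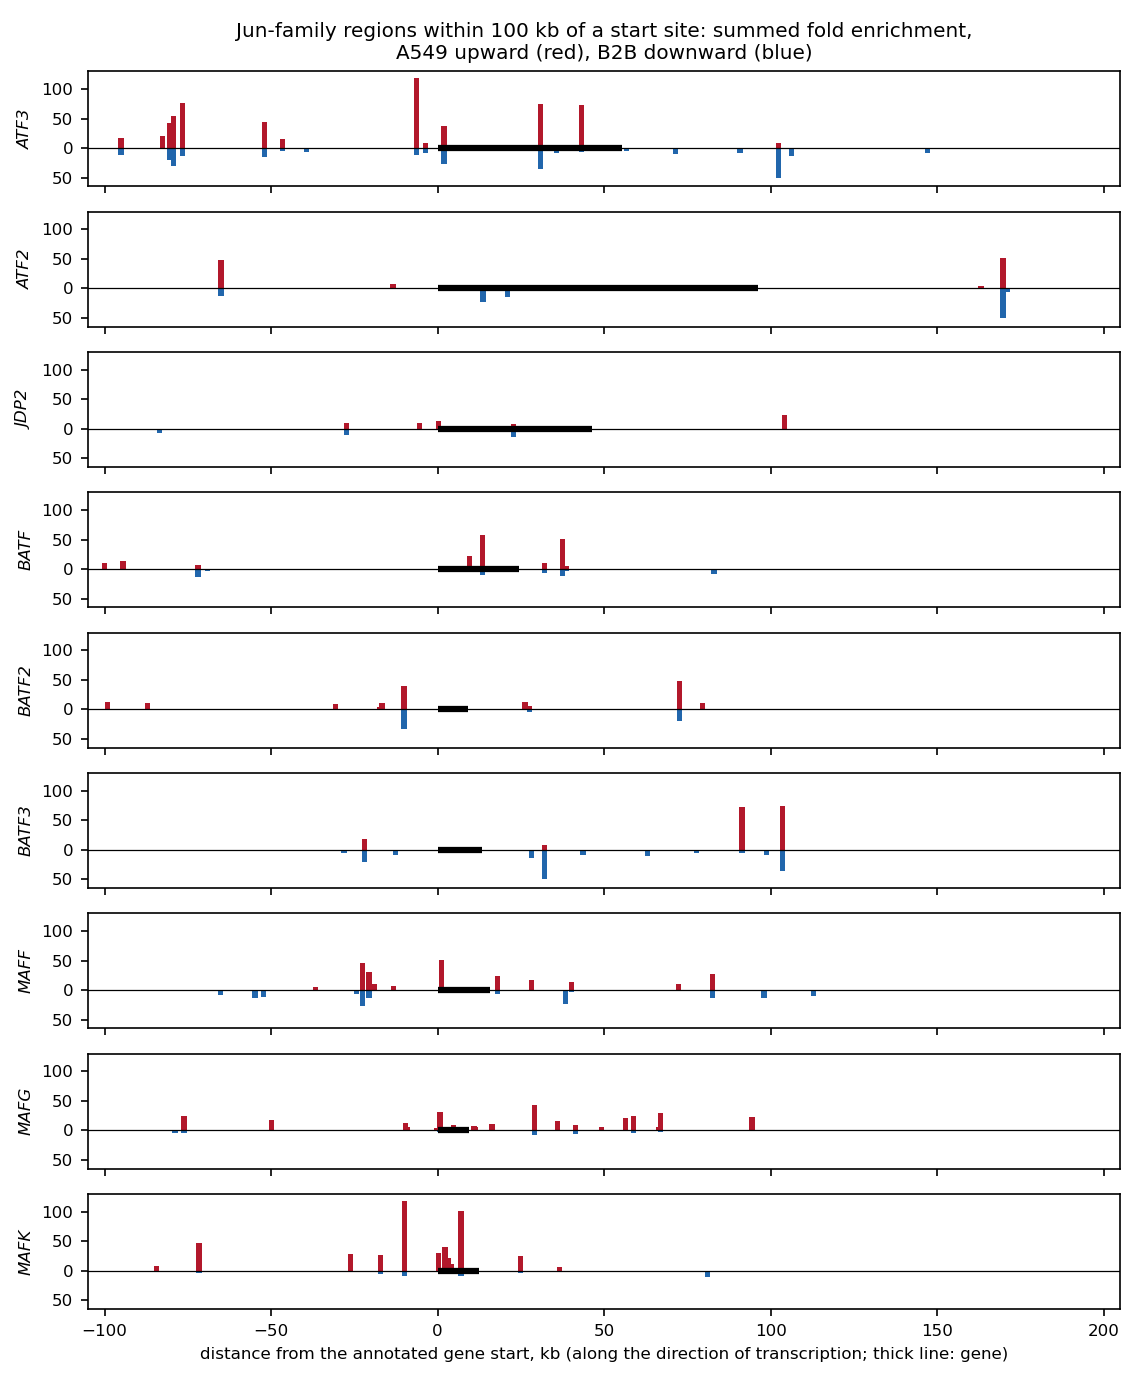
Jun-family regions around each gene by distance in kb from the annotated gene start, with the summed fold enrichment of JunB, Jun and JunD drawn upward for A549 (red) and downward for B2B (blue), and the gene as a thick line. The tallest A549 bars stand upstream of ATF3 (118) and MAFK (119), and the tallest B2B bars stand within CHN1 near ATF2 (50.6) and downstream of BATF3 (50.2).

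The strongest regions near ATF3 and MAFK lay upstream of both genes. For MAFK it spanned 1520371 to 1521184, between genes with its near edge 9.52 kb upstream, with a summed A549 fold of 119 that only 0.254% of A549 regions reached. Jun there held 216 reads over 1.7 in A549 (fold 81.1, top 0.0393% of its list) and 34 reads over 3.0 in B2B (fold 8.75). This was a region where both the pileup and the fold were higher in A549. It overlapped pol II, H3K4me3, H3K27ac and Med1 peaks of A549 and none of any B2B list outside Jun, and it holds none of the 3 motifs within 50 bp of its strongest summit.

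For ATF3 the strongest A549 region spanned 212558758 to 212559307, over an exon of the non-coding gene ENSG00000260805 with its near edge 6.03 kb from an ATF3 start site. Its summed fold was 118 in A549, reached by 0.268% of A549 regions, and 11.6 in B2B. Jun held 216 reads over 2.3 in A549 and 200 reads over 24 in B2B, and JunB 184 reads over 4.5 and 162 reads over 44. JunD, at fold 19.5 in A549 and in the top 0.290% of its list, was not called in B2B. The printed sequence holds both TGAGTCA, the reverse complement of the AP-1 motif, and TGACGTCA. Unlike the MAFK region it carried pol II, H3K4me3, H3K27ac and Med1 peaks in both lines.

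Around ATF3, 2 regions carried JunB, Jun and JunD in A549 as well as in B2B. The first spanned 212595777 to 212596766 in an intron of ATF3, with Jun at 149 reads over 1.7 in A549 and 160 reads over 5.4 in B2B, and it was also the strongest A549 region of the BATF3 window (summed fold 74.6). The second lay far upstream at 212485757 to 212486451, with Jun at a fold of 22.6 in A549 and 21.7 in B2B. The sequence of the latter holds the extended motif.

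Elsewhere the order of the lines was mixed. The strongest region near BATF3 in B2B spanned 212667370 to 212668180, 19.3 kb from its start site and also the strongest B2B region of the ATF3 window, with Jun at 115 reads over 2.3 in B2B (fold 34.7) and 26 reads over 2.3 in A549 (fold 8.21). JunB (fold 8.64) and JunD (fold 6.90) were called there in B2B alone, and H3K27ac and Med1 peaks of B2B but not of A549 overlapped it. Here backgrounds were equal, and pileup and fold were both higher in B2B. Near BATF the strongest A549 region lay in an intron at 75535623 to 75536396, with Jun at 172 reads over 2.8 in A549 and 24 reads over 1.6 in B2B, and overlapped pol II and Med1 peaks of A549. Although BATF had no peak at its start sites, 2 further intronic regions were called in A549 alone, and the stronger, at 75531646 to 75532270, held a Jun peak of 62 reads over 1.8 and was the strongest A549 region of the JDP2 window.

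The strongest ATF2 region in either line was a distal one in an intron of CHN1, spanning 174998355 to 174998851. The 3 proteins were all called there in each line, with summed folds of 52.2 in A549 and 50.6 in B2B. It lies 0.916 kb from a CHN1 start site and 94.4 kb from the nearest ATF2 start site. The strongest B2B region near MAFF, at 38178012 to 38178367 in an intron of PLA2G6, likewise held the 3 proteins in each line, with summed folds of 45.5 in A549 and 27.7 in B2B, and the strongest A549 region was the MAFF start site (50.8). For BATF2 the strongest B2B region lay 9.83 kb away at 65006845 to 65007284, with Jun at 67 reads over 1.4 in A549 and 108 reads over 3.1 in B2B. Its strongest A549 region, with a summed fold of 47.4, spanned 64923954 to 64924891 in an intron of PPP2R5B. For MAFG the same region led in both lines, at 81898323 to 81898963 over an exon of ANAPC11, with Jun at 87 reads over 1.3 in A549 and 73 reads over 8.4 in B2B. Around JDP2 and BATF the strongest B2B region was an intronic one at 75450378 to 75450676, with Jun at fold 9.54 and JunD at fold 4.07 in B2B and JunB at fold 7.17 in A549. For MAFK in B2B it was a Jun peak called in B2B alone, at 1611665 to 1611923 (fold 10.5).

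Regions bound by all 3 proteins in 1 line with no Jun-family peak in the other were few. Such a region of A549 lay within 100 kb of 28.4% of all genes, and of the members it lay near MAFK and BATF2. MAFK had 2, its first start site and a region at 1504330 to 1504780 that is 0.215 kb from a start site of INTS1, and BATF2 had 1, at 65096023 to 65096371 and 0.00600 kb from a start site of VPS51. The VPS51 peaks were weak within their lists, in the top 96.2% of the JunB list, 85.0% of the Jun list and 77.2% of the JunD list. No member had such a region of B2B, which lay near 5.79% of genes. The 4 regions with all 3 proteins in each line were those already named in and upstream of ATF3, in CHN1 and in PLA2G6.

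The 3 classes of regions were described by the marks that overlapped them and by where they lay. In B2B, H3K27ac peaks overlapped 25 of the 42 regions called in both lines, 27 of the 39 called in A549 alone and 8 of the 23 called in B2B alone. In A549, as far as its list reaches, H3K27ac overlapped 16 of 24, 14 of 17 and 0 of 12. Pol II of A549 overlapped 22 of 30, 17 of 21 and 2 of 15, and Med1 of A549 17 of 30, 16 of 21 and 0 of 15. CTCF of B2B overlapped 16 of 42, 8 of 39 and 8 of 23, and Rad21 15 of 42, 22 of 39 and 3 of 23. These overlaps were not counted over the genome, so they describe the regions near the members alone. Of the regions called in A549 alone, 69.2% had their strongest summit within 1 kb of a protein-coding start site, mostly of neighbouring genes, and 57.7% without the MAFG window. The share was 31.0% for regions of both lines and 26.1% for those of B2B alone. Over the genome the 3 shares were 28.1% (A549 alone), 11.3% (both) and 5.45% (B2B alone).

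The AP-1 motif, TGACTCA or its reverse complement, lay within 50 bp of a Jun-family summit in 40 of the 104 regions (38.5%), close to the 37.1% of all 72011 regions. It was found in 24 of the 42 regions called in both lines (57.1%), against 56.8% over the genome. In the regions called in A549 alone it was found in 5 of 39 (12.8%), against 31.0%, and in those called in B2B alone in 11 of 23 (47.8%), against 29.2%. Of these, 69.2% of the 39 and 26.1% of the 23 had their strongest summit within 1 kb of a coding start. Over the genome these shares were 28.1% and 5.45%. The MAFG window held 13 of the 39. Whether position bears on the motif share was not tested. By line, 29 of the 81 A549 regions (35.8%) and 32 of the 65 B2B regions (49.2%) held the motif. Over the genome the order was the reverse, with 41.1% of 43632 A549 regions and 38.6% of 47486 B2B regions. The motif was in 12 of the 21 regions bound by all 3 proteins in A549 (57.1%). Of these 21 regions, 18 were called in both lines. The share among all regions of the genome bound by all 3 proteins was not counted.

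**Figure D5:**
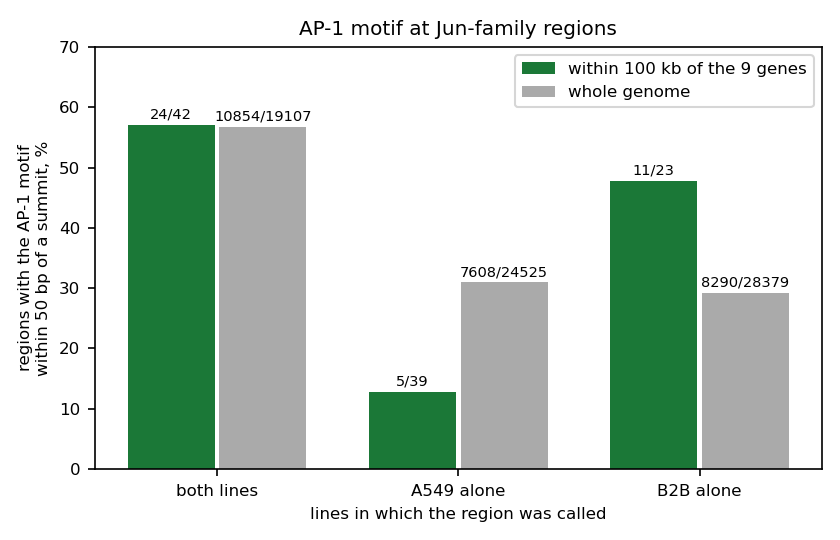
Percent of Jun-family regions with the AP-1 motif within 50 bp of a summit, by the lines in which the region was called, for the regions within 100 kb of the 9 genes (green) and over the genome (grey), with counts above the bars. The 2 bars are level for regions of both lines (57.1% and 56.8%). They differ for A549 alone (12.8% and 31.0%) and, in the other direction, for B2B alone (47.8% and 29.2%).

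The CRE was rare, in 3 of the 104 regions, against 1.21% of regions over the genome. These were the region upstream of ATF3 that also holds the AP-1 motif, the MAFF start site, and a weak B2B Jun region within ASPSCR1 (fold 3.68). The extended motif TGANTCAGC, whose forms with C or G at the free base contain the AP-1 motif, was in 10 regions (9.62%), against 6.18% over the genome. Of the 10, 8 were called in both lines, and these included the MAFG intron and the far upstream ATF3 region printed above. Over the genome 1945 of the 4448 regions with the extended motif were called in both lines. It was in 10.2% of all regions of both lines, 5.15% of those of A549 alone and 4.37% of those of B2B alone. In the RefSeq promoters (GRCh38.p14, 250 bases before to 50 after a start), 10 entries matched 6 of the members. None held the AP-1 motif, which 4.95% of 35116 promoters hold, and none the extended motif, which 1.36% hold. The CRE was in 1 of the 10, that of MAFF, and in 1.85% of all promoters. A motif match is a match of letters and does not show which dimer bound.

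The other bZIP genes outside the Jun and Fos families, 36 in number and listed by name, were counted in the same way. At least 1 of the 3 proteins was called within 3 kb at 83.3% of them in A549 and at 18 of 36 in B2B, and all 3 at 16 of 36 in A549 and 2 of 36 in B2B. JunB was called at 24 of 36 in A549 and 5 of 36 in B2B, Jun at 26 and 18, and JunD at 19 and 2. The share was above that of the members in each of these counts but JunB in B2B, where 2 of 9 members had a peak. ATF1, CEBPA, CEBPG, DBP and NRL had all 3 in A549 and none in B2B, and no gene of the list had the reverse. Over all covered genes, too, all 3 were called more often in A549 (13.9%) than in B2B (2.68%). Over the 12 lists that reach chromosome Y, the presence or absence of a peak at ATF3 and at MAFK was the same in every list as at NFE2L2, the gene of NRF2. MAFF was the same as ATF5 and XBP1, BATF3 the same as NFE2 and MAF, BATF2 the same as CEBPE, and BATF, with no peak, the same as CREB3L3. ATF2 and JDP2 matched no gene of the list, and MAFG was not compared because 2 of the 12 lists do not reach it. Lists that end earlier were left out, and some of them differed. Pol II of A549 was called at BATF3 but not at NFE2 or MAF, and at BATF2 but not at CEBPE. How many genes overall share each pattern was not counted.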

How the data were processed

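Per the submitters' processing notes and the methods of the study, reads were aligned to hg38 with Bowtie2 2.4.4, duplicates were removed, the 2 replicates were merged and scaled by CPM with SAMtools 1.13, and peaks were called with MACS2 2.2.7.1. The options and controls of the caller are not given in the sources used here. The deposited lists give for each peak a fold enrichment over local background (a ratio), −log10 p and −log10 q values, and the summit offset. The inputs were not analysed here, and no column of another sample was used.

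Start sites were taken from GENCODE 44 on hg38. Every peak end lay within the length of its chromosome. A gene past the last peak of a list on its chromosome was not counted for that list. The whole-read pileup t and background c at a summit were solved from fold = (t + 1)/(c + 1) and the Poisson p-value with a tolerance of 0.003 in −log10 p. All of the 400 peaks drawn from each list were solved. Regions joined Jun-family peaks that overlap by at least 1 bp. Motifs were searched on both strands within 50 bp of a summit. The scripts (Python 3.11.15, NumPy 2.4.6, SciPy 1.17.1, bedtools 2.31.1, matplotlib 3.10.9) were tested on simulated data.

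The members, gene lists and regions to describe were chosen with earlier results of these data known. Named were all 9 members, the region with the highest summed fold within 100 kb of each member in each line, regions bound by all 3 proteins in 1 line alone, every Jun-family peak within 3 kb, and genes of the fixed list of 36 with all 3 proteins in 1 line alone. Also described, chosen after their values were seen, were the nearest ATF2 regions, the second intronic region of BATF called in A549 alone, the third region with the CRE and the member regions bound by all 3 in both lines.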

Additional observations from a re-analysis of the deposited data

How the results depend on the processing

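No paired analysis was possible because each peak list pools its 2 replicates, and no replicate could be left out. The counts of members with a Jun-family peak, with all 3 proteins and with H3K4me3 stayed within 1.5 times of their value in both lines with windows of 1 or 10 kb, with −log10 q of at least 5, with start sites of protein-coding transcripts alone and with lists cut to equal length. Counts of regions moved by more with the window. Regions called in A549 alone rose from 39 to 65 at 200 kb, and those called in B2B alone moved from 23 to 13 at 50 kb and 37 at 200 kb. Keeping only regions whose nearest protein-coding start site is a member's left 17 in both lines, 10 in A549 alone and 9 in B2B alone. Requiring 50% reciprocal overlap gave 41 shared regions. The share of A549 regions with the AP-1 motif was 24.7% within 25 bp of a summit instead of 35.8% within 50 bp. Leaving out the MAFG window was chosen after seeing the data because the A549 JunB list does not reach it. It gave 36 regions in both lines, 26 in A549 alone and 22 in B2B alone. The motif shares were then 40.3% in A549 and 51.7% in B2B, where the genome shares were 41.1% and 38.6%. The lists give no library depth, so an absent peak is a peak not called at an unknown depth.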
